A study of Mus musculus with 8 samples.

Results

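The genes described here are 10 markers of adult neurogenesis and of immature neurons, Nes, Sox4, Sox11, Eomes, Neurod1, Dcx, Tubb2b, Igfbpl1, Draxin and Calb2. They were taken by gene symbol, with every probe whose RefSeq accession maps to them, which gave 18 probes of the 55681 on the array. Of these, 13 probes for 8 genes were well above background in the hippocampal channel on at least 4 of the 8 arrays and were tested, out of 32598 tested probes and 15088 tested named genes. Both probes of Eomes, both probes of Draxin and the third probe of Dcx did not reach that limit.

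The data are hippocampal RNA of adult male Muta™Mouse, a transgenic strain that carries lacZ as a mutation reporter in all groups, 9 weeks of age. One group of 4 mice (BaP-exposed mice) received 70 mg of benzo[a]pyrene (BaP), a polycyclic aromatic hydrocarbon, per kg bw per day in olive oil by oral gavage for 3 days, and 4 control mice received olive oil alone. Tissue was taken 24 h after the last dose. Each RNA was labelled with Cy5 and hybridised beside a Cy3-labelled universal mouse reference RNA, so that every value below is a log2 ratio of the mouse over the same reference, and a ratio of one probe cannot be set against that of another as a level. In bulk tissue, fewer cells of a type and less RNA per cell cannot be told apart.

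Labels of 4 arrays conflict. Control 3, Control 4, BaP 3 and BaP 4 have a title of one group and a source name of the other, and the titles were used here. Differences of the markers are therefore also given for the arrays whose labels agree (Control 1, Control 2, BaP 1 and BaP 2), which form slide row 1, beside those of slide row 2, so that label conflict and slide row cannot be told apart. The 8 arrays share 1 slide, 56.6% to 67.4% of spots were well above background in Cy5, and no spot was saturated. Control 1 had 1483 spots marked as outliers against 310 to 371 on the other arrays. As a check of the tissue, Zbtb20, a factor of hippocampal pyramidal and granule neurons, lay between 2.46 and 3.14 on the log2 ratio scale, and Wfs1, a marker of CA1 neurons, lay between 1.57 and 2.88.

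New granule neurons arise throughout life in the subgranular zone of the dentate gyrus. Radial glia-like stem cells that hold the intermediate filament nestin (Nes) give rise to intermediate progenitors with the T-box factor Tbr2 (Eomes), and then to neuroblasts and immature neurons that carry doublecortin (Dcx), a microtubule-binding protein of migrating cells. The SoxC factors Sox4 and Sox11 and the bHLH factor Neurod1 drive neuronal commitment and survival along this path, and calretinin (Calb2) marks a brief postmitotic stage before calbindin appears. These cells are few in the adult hippocampus, and several of the markers are also made elsewhere in it, Calb2 by interneurons and mossy cells, Neurod1 by mature granule neurons and Nes by vessels.

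BaP binds the aryl hydrocarbon receptor, which with its partner Arnt binds the xenobiotic response element (XRE). Promoter windows were available for 7 of the markers, and not for Igfbpl1, Calb2 and Tubb2b. The 250 bases before the transcription start were read from RefSeq (GRCm38.p6), for Dcx with 2 starts. The XRE core GCGTG, on either strand, was present in 3 of these 8 windows, against 28.2% of all 32851 windows of the same length. Those 3 windows and the outer one of Dcx, which lacks the core, are printed 5′ to 3′ on the strand of the gene, with the core or its reverse complement CACGC in capitals. They are Sox11 at chr12:27342719-27342968 (minus strand), Sox4 at chr13:28953700-28953949 (minus strand), Neurod1 at chr2:79456637-79456886 (minus strand) and Dcx at chrX:143933220-143933469 (minus strand).
Sox11: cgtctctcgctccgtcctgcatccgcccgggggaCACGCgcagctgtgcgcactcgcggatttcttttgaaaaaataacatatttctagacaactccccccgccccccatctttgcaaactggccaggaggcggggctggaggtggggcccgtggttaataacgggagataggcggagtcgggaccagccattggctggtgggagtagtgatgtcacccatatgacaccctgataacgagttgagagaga
Sox4: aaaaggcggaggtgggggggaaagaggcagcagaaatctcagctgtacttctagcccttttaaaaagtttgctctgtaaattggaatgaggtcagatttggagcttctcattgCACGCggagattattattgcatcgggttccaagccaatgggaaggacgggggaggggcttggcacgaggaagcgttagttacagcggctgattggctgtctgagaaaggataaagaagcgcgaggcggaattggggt
Neurod1: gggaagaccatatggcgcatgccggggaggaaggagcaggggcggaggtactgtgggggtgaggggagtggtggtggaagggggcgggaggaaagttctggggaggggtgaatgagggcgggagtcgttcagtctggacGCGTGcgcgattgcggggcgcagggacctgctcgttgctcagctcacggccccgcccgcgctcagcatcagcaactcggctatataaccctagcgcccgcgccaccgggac
Dcx: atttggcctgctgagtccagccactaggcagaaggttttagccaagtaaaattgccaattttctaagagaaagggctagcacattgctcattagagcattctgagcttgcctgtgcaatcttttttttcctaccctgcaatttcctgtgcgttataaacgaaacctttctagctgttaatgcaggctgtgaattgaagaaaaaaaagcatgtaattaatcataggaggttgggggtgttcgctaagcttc
A match of these letters is a description of the sequence and not a site of binding. The windows of Nes, Eomes and Draxin and the inner window of Dcx did not contain the core. E-boxes (CANNTG), the letters that bHLH factors such as Neurod1 bind, were found in 4 of the 8 windows (Sox11, Sox4, Neurod1 and Draxin), against 66.2% of all windows.

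Comparison of BaP-exposed with control mice asks whether a short, high exposure went with altered markers of this lineage. No marker passed the thresholds of an adjusted p of 0.05 or less and a fold change of at least 1.5 in limma, in 0 of 13 probes, where 3 of all 32598 tested probes passed (0.0092%). None of the 13 had an unadjusted p of 0.05 or less, against 8.76% of all tested probes, and in none were the groups without overlap, against 2.54% of tested probes with all BaP-exposed mice lower and 2.52% with all higher. The differences ran from -0.22 for Tubb2b to 0.36 for Igfbpl1 on the log2 scale. Taking the brightest tested probe of each gene, 3 genes had higher and 5 had lower ratios after BaP and the median difference was -0.054, beside -0.0043 over all tested probes, of which 48.8% were higher. The 95% interval of 11 of the 13 probes lay within a 1.5-fold change in either direction, and that of 12 within a 2-fold change. A p above the threshold does not show that the groups were alike, and the interval of each marker holds for this processing only. With plain background subtraction the SE rose from 0.20 to 0.51 for Dcx and from 0.23 to 0.42 for Calb2. For Igfbpl1 it was 0.31 in both.

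**Figure D1:**
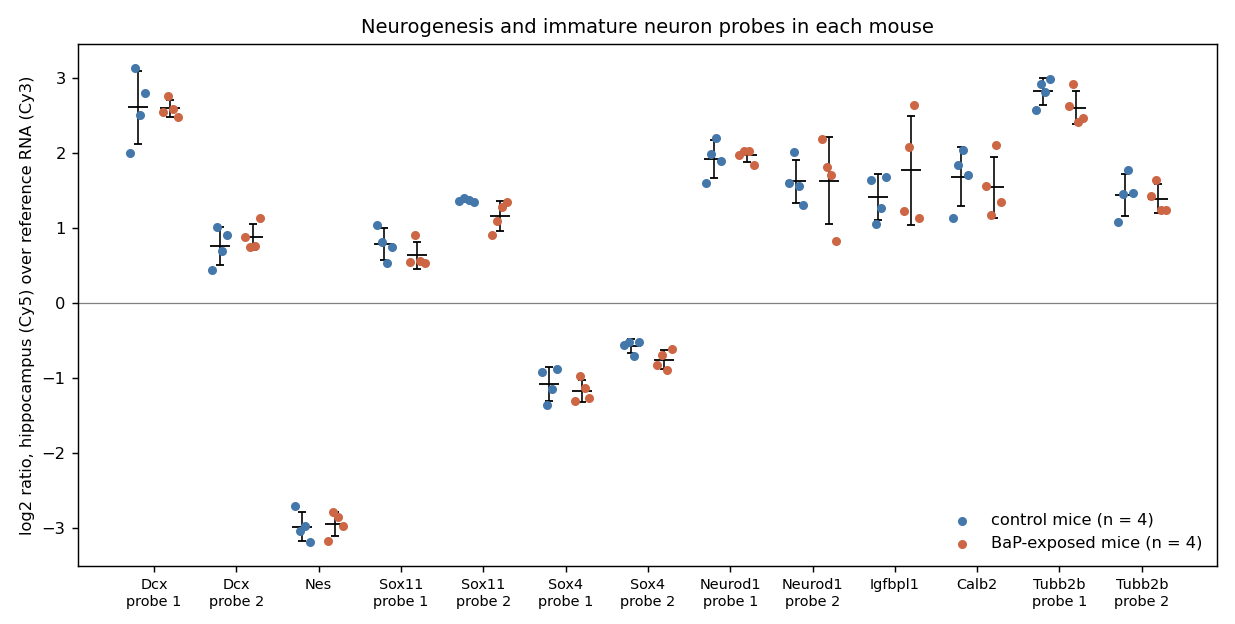
Log2 ratio of hippocampal RNA over the reference RNA for the 13 tested probes, with one point for each mouse, control mice at the left and BaP-exposed mice at the right of each pair. Bars give the mean and the SD of 4 mice, and in every probe the points of both groups overlap.

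The stem cell marker Nes was measured at log2 ratios of -2.71, -3.04, -2.98 and -3.19 in control mice 1 to 4 and -3.17, -2.79, -2.86 and -2.98 in BaP-exposed mice 1 to 4. The reference RNA thus gave the brighter signal in every mouse, and the groups covered the same range. The mean was -2.98 ± 0.20 (SD, n = 4) in control mice and -2.95 ± 0.17 (SD, n = 4) in BaP-exposed mice. The difference was 0.033 with an SE of 0.12 and a 95% interval of 0.850 to 1.23-fold (limma, adjusted p = 0.957). It was -0.10 on the arrays whose labels agree and 0.17 on those whose labels conflict. Of the list of 20 other genes of radial glia-like stem cells 19 were tested, and 8 had higher and 11 had lower ratios after BaP, none past the thresholds. Their median was -0.053, which lay 0.0085 above that of all tested probes when taken from the Cy5 channel alone. At an unadjusted p of 0.05 or less, 3 were lower and 0 higher, beside 8.76% of all tested probes in either direction. Hes5, a Notch target that keeps stem cells undifferentiated, had log2 ratios of 4.63 to 5.57 in control mice and 4.14 to 5.03 in BaP-exposed mice, a difference of -0.66 with an SE of 0.22 (limma, adjusted p = 0.50), and of -0.44 on the arrays whose labels agree and 0.23 when grouped by source name. Fabp7, a fatty acid-binding protein of radial glia and astrocytes, differed by -0.42 with an SE of 0.16 (limma, adjusted p = 0.527), and by 0.0013 when grouped by source name. Markers of mature astrocytes lay below 0 as well, in 9 of 10 tested genes, with a median of -0.12, and 8 of 10 lay below the median of all tested probes when arrays were only centred on the median. The count below 0 was 6 of 10 from Cy5 alone with a median of -0.0083, and 5 of 10 when grouped by source name. The part of astrocyte content in the stem cell list was not tested.

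Sox11, one of the commitment factors, was read by a pair of probes. On probe A_52_P160955 the control mice gave 1.35, 1.39, 1.37 and 1.35, and the BaP-exposed mice 0.90, 1.09, 1.28 and 1.35. The control mice lay close together, BaP 4 lay among them and the other 3 BaP-exposed mice lay below. The means were 1.37 ± 0.022 and 1.16 ± 0.20 (SD, n = 4 each), and the difference was -0.21 with an SE of 0.10 (limma, adjusted p = 0.588, exact two-sided permutation p = 0.0571, where 0.0286 is the smallest that 4 against 4 allows). It was -0.38 on the arrays whose labels agree and -0.045 on those whose labels conflict. The brighter probe A_55_P2094721 gave 1.04, 0.81, 0.53 and 0.74 in control mice and 0.54, 0.90, 0.56 and 0.53 in BaP-exposed mice. Here BaP 2 stood inside the control values while the other 3 sat at their lower end. The difference was -0.15 with an SE of 0.13, and -0.20 and -0.088 on the arrays whose labels agree and conflict. Leaving out 1 mouse gave -0.24 (without BaP 2) to -0.058 (without Control 1). BaP 2 was second lowest of the 8 mice on the dimmer probe and second highest on the brighter one. Pearson's r between them over the 8 mice was 0.15.

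Sox4 showed values of like size. Its probe A_55_P2131899 gave -0.56, -0.52, -0.71 and -0.52 in control mice and -0.83, -0.69, -0.89 and -0.62 in BaP-exposed mice. Control 3, at -0.71, was the control value that reached into the BaP range. The difference was -0.18 with an SE of 0.090 and an interval of 0.767 to 1.01-fold (limma, adjusted p = 0.588, exact two-sided permutation p = 0.0857), with -0.22 and -0.14 on the arrays whose labels agree and conflict. The brighter probe A_55_P2121613 differed by -0.092 with an SE of 0.12, and by 0.0049 and -0.19 on the same pairs of arrays. Leaving out 1 mouse gave -0.19 (without Control 2) to -0.027 (without Control 4). Its control values, from -1.37 to -0.88, enclosed all those of the BaP-exposed mice.

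Neurod1 differed little between the group means, and in opposite directions on the arrays whose labels agree and conflict. On probe A_55_P2004972 control mice gave 1.60, 1.99, 2.20 and 1.89 and BaP-exposed mice 1.97, 2.03, 2.02 and 1.84. The difference was 0.046 with an SE of 0.12 and an interval of 0.856 to 1.25-fold (limma, adjusted p = 0.934), with 0.21 on the arrays whose labels agree and -0.11 on those whose labels conflict. The dimmer probe A_52_P408391, well above background in the reference on only 1 array, spread further, with the BaP-exposed mice at 2.19, 1.81, 1.70 and 0.82. BaP 1 was above and BaP 4 below every control mouse, and the difference was 0.010 with an SE of 0.26 and a 95% interval of -0.56 to 0.58 on the log2 scale, with 0.19 and -0.17 on the same pairs of arrays.

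Eomes, the marker of intermediate progenitors, was well above background on 3 arrays, Control 1, BaP 2 and BaP 3, on probe A_55_P2150717 and on no array on its other probe, so that no test was made. The Cy5 signal above local background was 140, 9.5, 26.5 and 17 in control mice 1 to 4 and 34.5, 61, 188 and 15 in BaP-exposed mice 1 to 4. The log2 ratio was 0.70 in Control 1, and those of 0.58 in BaP 2 and 1.43 in BaP 3 stand against a reference that was not well above background there. Control 1, the array with 1483 outlier spots, was also the only array on which the reference was well above background for this probe. Both groups thus held arrays with and without a measured Eomes signal, and array and mouse cannot be told apart. Of the list of 20 other progenitor and commitment genes, 18 were tested, with 7 higher and 11 lower and none passed the thresholds. The median was -0.027, and 0.056 above that of all tested probes when arrays were only centred on the median. At an unadjusted p of 0.05 or less 1 was higher and 0 lower, beside 8.76% of all tested probes. It was Nhlh1, a bHLH factor of young neurons, at 0.25 with an SE of 0.10 (limma, adjusted p = 0.544), and at 0.037 when grouped by source name.

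Dcx gave a Cy5 signal of 247 to 415 above local background on its brightest probe, A_52_P244349, and was well above background in the hippocampal channel on all 8 arrays. The log2 ratios were 1.99, 3.14, 2.50 and 2.80 in control mice and 2.55, 2.75, 2.59 and 2.48 in BaP-exposed mice. The control mice held both the lowest and the highest value, and the BaP-exposed mice lay between them. Means were 2.61 ± 0.48 and 2.59 ± 0.12 (SD, n = 4 each). The difference was -0.016 with an SE of 0.20 and a 95% interval of 0.723 to 1.35-fold (limma, adjusted p = 0.989, exact two-sided permutation p = 0.914), with 0.087 and -0.12 on the arrays whose labels agree and conflict. The reference was well above background for this probe on 2 arrays only. Taken from the Cy5 channel alone, the difference was -0.22 with an SE of 0.095 (limma, unadjusted p = 0.0467, adjusted p = 0.630). The second probe, A_55_P2080126, gave 0.44, 1.01, 0.70 and 0.91 in control mice and 0.88, 0.75, 0.76 and 1.13 in BaP-exposed mice, a difference of 0.12 with an SE of 0.14, and of 0.093 and 0.14 on these pairs of arrays. The reference was well above background for this second probe on no array. Control 1 had the lowest log2 ratio on both probes, although its Cy5 signal on the second, 95 above local background, was the highest of the 8 mice. The direction of the difference was not the same on both probes. Its sign also turned in 10 of 24 other settings of the processing and sample choice.

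In all, 5 genes had more than one tested probe, and agreement of the probes over the 8 mice was highest for Tubb2b, with Pearson's r = 0.69 and Spearman's rho = 0.71 (exact permutation p = 0.0681 and 0.0576, adjusted over 5 pairs 0.204 and 0.288), and r = 0.72 without the 2 mice farthest from the median. For Dcx r was 0.64 and rho 0.40 (exact permutation p = 0.0818 and 0.327, adjusted 0.204 and 0.671), and r was -0.22 without Control 1 and Control 2, so that the relation rests on these mice. For Neurod1, Sox4 and Sox11 r was 0.28, 0.24 and 0.15 and rho 0.31, 0.26 and 0 (exact permutation p for r from 0.493 to 0.710, adjusted 0.687 to 0.710), and without the 2 mice farthest from the median r was 0.81, 0.46 and 0.40. None of the 5 correlations had an adjusted p of 0.05 or less.

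Tubb2b, a beta-tubulin of growing neurons that is abundant in immature ones, was the brightest marker, with a Cy5 signal of 9668 to 14574 above local background on probe A_55_P2034864. Control mice gave 2.58, 2.92, 2.81 and 2.98 and BaP-exposed mice 2.62, 2.91, 2.42 and 2.47. BaP 3 and BaP 4 were below every control mouse, and BaP 1 and BaP 2 lay within the control values. The difference was -0.22 with an SE of 0.13 and an interval of 0.706 to 1.05-fold (limma, adjusted p = 0.644, exact two-sided permutation p = 0.171). It was 0.017 on the arrays whose labels agree and -0.45 on those whose labels conflict. The second probe showed the same split, 0.27 and -0.38, around a difference of -0.052. Without Control 1 or without BaP 2 the unadjusted p of the first probe was 0.0435 and 0.0224, with no adjusted p past the threshold.

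**Figure D2:**
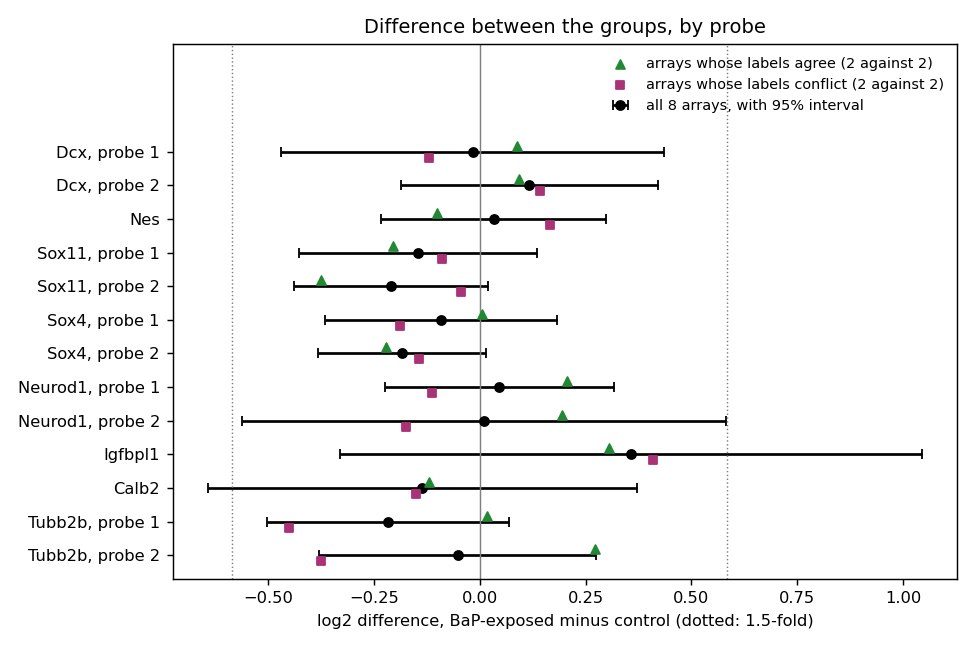
Difference between BaP-exposed and control mice in log2 ratio for the 13 tested probes, with the 95% interval of the limma fit over 8 arrays (circles) and the differences within the arrays whose labels agree (triangles) and conflict (squares), without error as each holds 2 mice per group. All 13 intervals cross 0, and the triangles and squares lie on opposite sides of 0 for both probes of Tubb2b and Neurod1, for the brightest probe of Dcx and of Sox4, and for Nes.

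The list of 30 genes of the immature neuron cytoskeleton and adhesion, which holds none of the 10 markers, was tested in full. After BaP 7 of its genes had higher and 23 had lower ratios, with a median of -0.10, and none passed the thresholds. When arrays were only centred on the median, 27 lay above 0 and 3 below, while 17 of the 30 lay below the median of all tested probes. At an unadjusted p of 0.05 or less, 2 were higher and 4 lower, beside the 8.76% of all tested probes given above. Gap43, a growth cone protein, had log2 ratios of 5.57 to 5.97 in control mice and 5.06 to 5.60 in BaP-exposed mice, a difference of -0.47 with an SE of 0.15 (limma, adjusted p = 0.498). Midkine (Mdk), a growth factor of developing brain, lay at 1.55 to 2.07 and 1.97 to 2.60, a difference of 0.51 with an SE of 0.18 (limma, adjusted p = 0.512). Grouped by source name, the arrays gave 0.15 for Gap43, 0.048 for Mdk and a median of 0.037 for the list.

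Draxin, a secreted axon guidance cue, was well above background on 1 array, Control 1, on probe A_55_P1997676 and on none on its other probe. No level or test is given for it.

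Igfbpl1, a protein of the insulin-like growth factor-binding family that is made by neuroblasts and young neurons, varied most between mice. The log2 ratios were 1.64, 1.05, 1.26 and 1.68 in control mice and 1.22, 2.08, 2.64 and 1.13 in BaP-exposed mice. BaP 2 and BaP 3 were above every control mouse, whereas BaP 1 and BaP 4 were among the lower controls. The means were 1.41 ± 0.31 and 1.77 ± 0.72 (SD, n = 4 each). The difference was 0.36 with an SE of 0.31 and an interval of 0.796 to 2.06-fold (limma, adjusted p = 0.747, exact two-sided permutation p = 0.429). It was 0.30 and 0.41 on the arrays whose labels agree and conflict, and it rests on BaP 3, without which it was 0.067, while leaving out any other mouse gave 0.24 (without Control 2) to 0.57 (without BaP 4). The range over the 8 mice, 1.59, was the widest of the 13 tested probes, but the reference was not well above background for this probe on any array, so that these ratios stand over an unmeasured denominator.

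The BaP-exposed mice with the most Igfbpl1 were also those with a measured Eomes signal. Other genes and lists were also high in these mice. Ebf2, a factor of Cajal-Retzius cells and other early neurons, gave 0.76, 0.19, 0.44 and 0.71 in control mice and 0.13, 1.02, 1.36 and 0.47 in BaP-exposed mice. Ebf3 gave -1.08, -2.50, -2.63 and -2.29 in control mice and -2.53, -1.34, -0.55 and -2.43 in BaP-exposed mice. Control 1, the control array with a measured Eomes signal and the most outlier spots, was the highest control for both and stood above BaP 2 for Ebf3. Of the Cajal-Retzius list, which holds both, 6 of 8 tested genes were higher with a median of 0.14. Reln, a secreted protein used as a marker of these cells though not particular to them, differed by -0.30 (limma, adjusted p = 0.559, without a value in Control 1). For the 10 genes of the ependyma list the mean log2 ratio was 1.25 to 1.90 in control mice and 1.81, 2.08, 2.57 and 1.40 in BaP-exposed mice. The median difference of that list was 0.37, and -0.16 relative to all tested probes when grouped by source name. The choroid plexus list, with 14 of 14 genes tested and higher in BaP-exposed mice, none past the thresholds, and a median of 0.84, gave 3.14, 2.04, 3.52 and 1.69 in control mice and 1.18, 4.19, 4.67 and 3.59 in BaP-exposed mice. On the arrays whose labels agree 10 of the 14 were higher with a median of 0.16, and grouped by source name 0 were, with a median of -0.65. Its defining gene Ttr, the thyroxine carrier of choroid plexus, lay between 5.92 and 7.75, with a difference of 0.041 over all arrays and -0.35 on the arrays whose labels agree. The part of such tissue in the values of Igfbpl1 and Eomes was not tested.

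**Figure D3:**
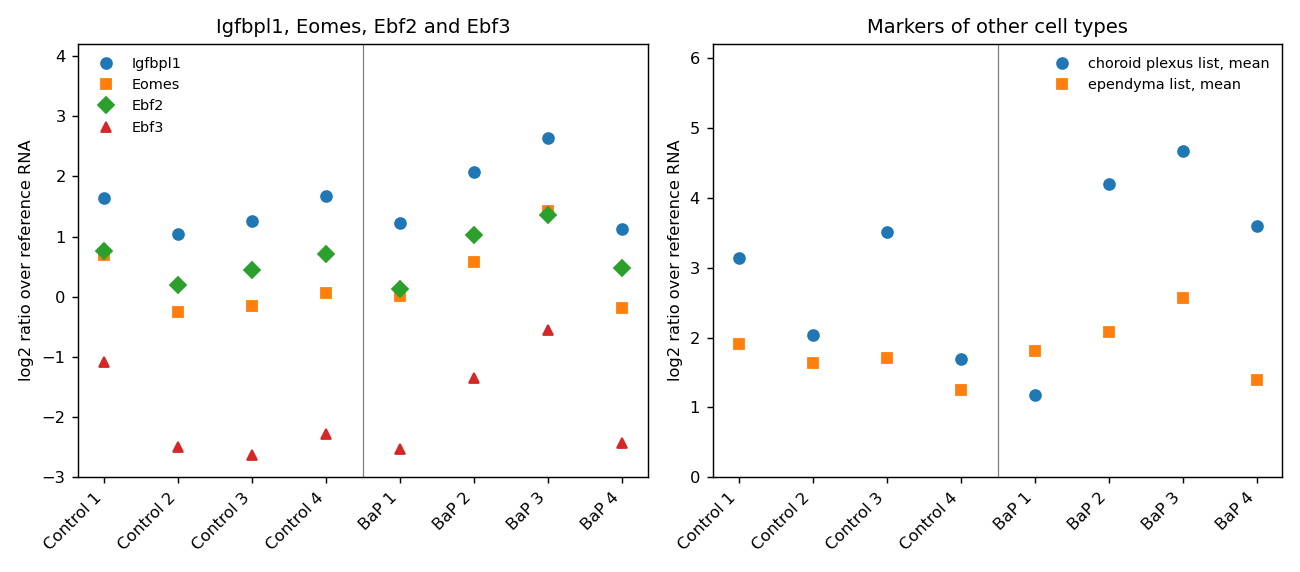
Log2 ratio over the reference RNA in each of the 8 mice for Igfbpl1, Eomes, Ebf2 and Ebf3 (left) and for the mean of the choroid plexus and ependyma lists (right). BaP 2 and BaP 3 hold the 2 highest values of Igfbpl1 (2.08 and 2.64) and of each list mean.

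Calretinin (Calb2) gave 1.13, 1.84, 2.04 and 1.70 in control mice and 1.56, 1.17, 2.10 and 1.34 in BaP-exposed mice. The groups had nearly the same range, with the lowest value in Control 1 and the highest in BaP 3. The difference was -0.14 with an SE of 0.23 and an interval of 0.641 to 1.29-fold (limma, adjusted p = 0.882). Without BaP 2 it was -0.010 and without Control 3 -0.014, and without Control 1 or BaP 3 it was -0.32, while the arrays whose labels agree and conflict gave -0.12 and -0.15. The reference was not well above background for this probe on any array. Among markers of the other cells that make calretinin, the GABA interneuron list had 2 of 12 tested genes higher and 10 lower with a median of -0.079 (0.051 above all tested probes from Cy5 alone), and the mossy cell list 3 of 7 higher and 4 lower with a median of -0.12, none past the thresholds. On the arrays whose labels agree these counts turned, to 8 of 12 higher with a median of 0.13 and 5 of 7 higher with a median of 0.19, and grouped by source name both medians were 0.14. Without Control 3 the GABA interneuron median was 0.0040, and without Control 2 the mossy cell median was 0.018.

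The later steps are covered by the granule neuron maturation list. In it, 12 of 15 tested genes had higher and 3 had lower ratios after BaP, with a median of 0.24, and none passed the thresholds. At an unadjusted p of 0.05 or less, 5 were higher and 0 lower, beside 8.76% of all tested probes in either direction. In the list of hippocampal subfields, which shares genes with it, 10 of 14 tested genes were higher as well, with a median of 0.13, which was 0.32 on the arrays whose labels agree and -0.026 on those whose labels conflict. Dsp, a desmosomal protein used as a marker of dentate granule neurons, had log2 ratios of 2.04, 1.63, 1.01 and 0.94 in control mice and 2.02, 3.04, 3.03 and 1.60 in BaP-exposed mice, a difference of 1.02 with an SE of 0.35 (limma, adjusted p = 0.510). BaP 2 and BaP 3 were again the highest mice. Lct, a gene that marks the same neurons, lay at 4.35 to 5.11 and 4.68 to 5.69, a difference of 0.68 with an SE of 0.23 (limma, adjusted p = 0.502). Grouped by source name, the arrays gave -0.32 and -0.066 for these genes and a median of 0.039 for the list.

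Of the list of 31 signals to the neurogenic niche, 27 genes were tested, with 14 higher and 13 lower, a median of 0.043 and none past the thresholds. The median was -0.0078 for the 25 genes well above background on all 8 arrays, -0.045 when grouped by source name and -0.029 on the arrays whose labels conflict. At an unadjusted p of 0.05 or less, 2 were higher and 4 lower, beside 8.76% of all tested probes. In 1 gene all BaP-exposed mice were higher and in 1 all were lower, beside 2.52% and 2.54% of all tested probes. Wnt3, a ligand made by hippocampal astrocytes that promotes neuronal fate, did not overlap between the groups, at 0.90 to 1.07 in control mice and 1.21 to 2.12 in BaP-exposed mice, a difference of 0.67 with an SE of 0.17 (limma, adjusted p = 0.467). Vegfa, a vascular growth factor that acts on progenitors, did not overlap either, at -0.89 to -0.69 and -1.16 to -0.90, a difference of -0.33 with an SE of 0.089 (limma, adjusted p = 0.488). Grouped by source name, these differences were -0.024 and -0.12.

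Proliferation genes are used to follow dividing progenitors, and all but 2 of the 17 tested had lower ratios after BaP, with a median of -0.14 and none past the thresholds. At an unadjusted p of 0.05 or less, 5 were lower and 1 higher, beside the same 8.76%. For 4 genes the whole BaP group lay under the whole control group, against 2.54% of all tested probes. These were Birc5, a mitotic survivin, at -0.42 with an SE of 0.11 (limma, adjusted p = 0.465), Cdc20, an activator of the anaphase-promoting complex, at -0.33 with an SE of 0.087 (adjusted p = 0.478), and the cyclins Ccnb2 and Ccna2 at -0.24 and -0.25 (adjusted p = 0.496 and 0.510). All 4 had ratios far below 0, from -6.01 to -3.21, where a small hippocampal signal stands over a bright reference. When arrays were only centred on the median, all tested probes moved to a median of 0.17, and 15 of the 17 proliferation genes lay above 0 but 13 of 17 still below that median. Grouped by source name, the arrays gave 0.098 for Birc5, -0.078 for Cdc20, -0.028 for Ccnb2, 0.073 for Ccna2 and a median of 0.036 for the list. Markers of red blood cells also differed between the groups. All 7 tested of that list of 10 were lower after BaP, with a median of -0.80. Of these 7, 2 passed the thresholds, beside 3 of all 32598 tested probes (0.0092%). In 5 of the 7 the groups did not overlap, beside 2.54% of all tested probes with BaP lower. The mean log2 ratio of the 7 genes was 3.98 to 4.15 in control mice and 3.15 to 3.44 in BaP-exposed mice. The haemoglobin chain Hbb-bs differed by -1.90 (limma, adjusted p = 0.00234) and Alas2, the first enzyme of haem synthesis in red cells, by -1.05 (limma, adjusted p = 0.0444). On the arrays whose labels agree and conflict Hbb-bs gave -2.02 and -1.79 and Alas2 -1.05 and -1.06, and grouped by source name -0.11 and 0.0094. The part of blood cells in the proliferation values was not tested.

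**Figure D4:**
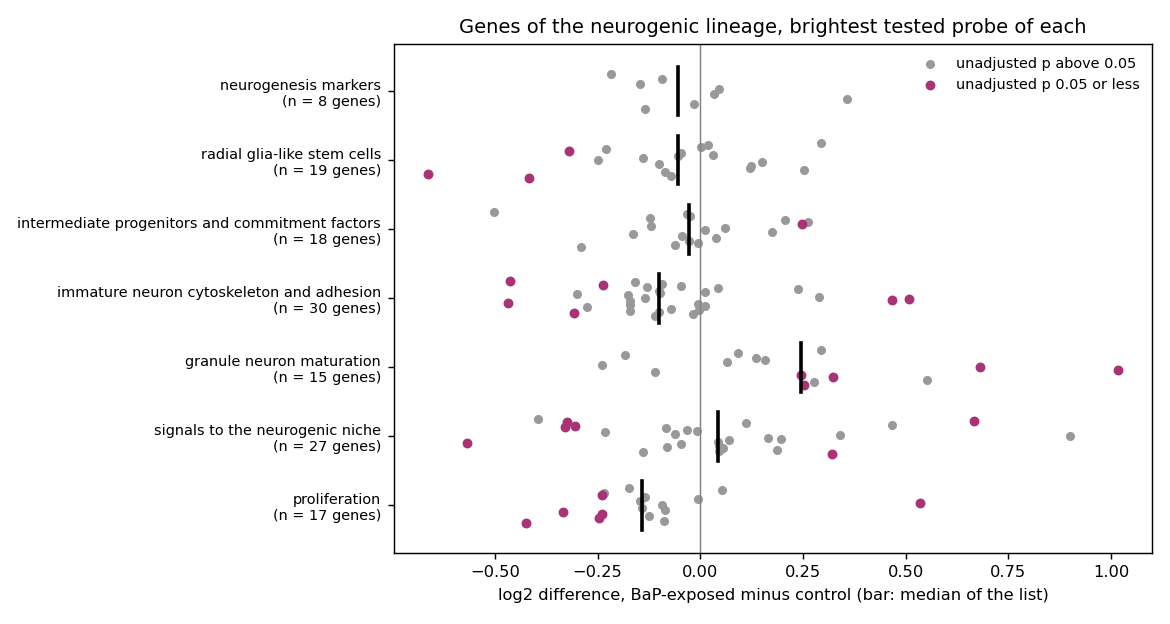
Log2 difference between BaP-exposed and control mice for the brightest tested probe of each gene, for the 8 tested neurogenesis markers and 6 lists of the neurogenic lineage, with a bar at the median of each list. Genes with an unadjusted p of 0.05 or less are in colour, none passed the adjusted threshold, and the medians run from -0.14 (proliferation) to 0.24 (granule neuron maturation).

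Of 14872 named genes with a value on all 8 arrays, those whose log2 ratios over the 8 mice were most like Dcx were Grip2 (Pearson's r = 0.97, Spearman's rho = 0.90), Tyw3 (0.95 and 0.86), 3110021A11Rik (0.95 and 0.76), BC024139 (0.94 and 0.71) and Immt (0.94 and 0.81). The least alike were Siah2 (-0.98 and -0.86), Plekho2 (-0.95 and -0.83) and Slc8a3 (-0.94 and -0.93). These are the extremes of many genes over 8 arrays that share a slide and a reference, and no other neurogenesis marker was among them.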

How the data were processed

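Two-colour Agilent arrays of 8 mice (4 control, 4 BaP-exposed) were read from the scanner files that the authors deposited, made with Agilent Feature Extraction 11.0.1.1 per the file headers. The median spot and local background intensity of Cy5 (mouse) and Cy3 (reference) are the deposited intensity values used, without dye swap. The deposited log10 ratio of the scanner served to read the scale of the authors' own normalized log2 table, whose columns tracked it with a slope near 1.05 to 1.06 on bright probes and had medians of -0.046 to -0.034. That table was used as an alternative.

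Background was corrected with normexp (offset 50), control spots were left out, outlier spots were set to missing, ratios were normalized by loess within arrays, and spots of a probe were averaged (limma 3.58.1 in R 4.3.3). A probe was tested if at least 4 arrays had it well above background in Cy5, with lmFit and eBayes, all 32598 adjusted together by Benjamini-Hochberg. Exact permutation tests of the group differences used R 4.3.3. Those of the probe correlations, and the promoter windows, used Python 3.11.15. Of the 28685 probes with a RefSeq accession, 94.9% were named through RefSeq symbols. The small number of arrays, with 4 mice per group, is among the limits of the precision. Fits were tested on simulated data.

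The markers and gene lists were chosen with earlier results of these data known. All probes of the 10 markers are named. From the lists of the lineage, genes whose groups did not overlap at an unadjusted p of 0.05 or less are named (up to 5 per list) or, failing that, the 2 of lowest p, and of the hippocampal list the 2 brightest. Some genes that these rules name are not reported here. Ebf2, Ebf3, Reln, Ttr, the erythroid genes and the lists beside Igfbpl1 were chosen after the values were seen. Grouping by replicate number, source name and slide row, and leaving out each mouse, were among 24 alternatives.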

Additional observations from a re-analysis of the deposited data

Results flagged for a closer look

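In the brighter Sox11 probe (A_55_P2094721), BaP 2 stood apart from the other BaP-exposed mice, at a log2 ratio of 0.90 against 0.53 to 0.56, a gap of 0.935 of the whole range of the group, which is above Dixon's 95% limit for 4 samples. On the other Sox11 probe the same mouse, at 1.09, lay inside the BaP range. Of 26 groups of 4 tested over the 13 probes this was the 1 that passed, and chance gives 1.3.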

How the results depend on the processing

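No probe of the 10 markers passed the thresholds in any of the 24 alternatives. The 3 probes called on the whole array became 0 with plain background subtraction, 0 with a gene-wise F test, 0 on the arrays whose labels agree, 0 with groups by source name, 0 on the arrays whose labels conflict (an alternative chosen after seeing the data), 6 from the Cy5 channel alone, 5 without a filter, and 1 to 3 without 1 mouse. On the arrays whose labels conflict 2 of 8 markers did not overlap between the groups, with 2 mice in each, beside 37.1% of all tested probes.

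Signs of small differences turned as follows. Dcx was 0.086 without background correction, 0.31 with plain subtraction, 0.13 in the authors' log2 table, 0.051 as a mean of its probes, and -0.22 to 0.16 without 1 mouse, and Nes was -0.0071 from Cy5 alone and -0.036 to 0.12 without 1 mouse. Centring on the median moved all tested probes to a median of 0.17, and gave 0.11 for Dcx, 0.013 for Sox11, 0.17 for Sox4, 0.077 for Tubb2b and 0.12 for the median of the markers. Relative to that shift these were -0.061, -0.15, 0.0038, -0.089 and -0.045, so that of these only Sox4 turned. Neurod1, at 0.14 with this centring, also turned relative to the shift, to -0.029. On the arrays whose labels agree Dcx was 0.087, Nes -0.10, Sox4 0.0049 and Tubb2b 0.017. With groups by source name Calb2 was 0.016, Dcx 0.10, Igfbpl1 -0.053, Nes -0.13, Sox4 0.097 and Tubb2b 0.23. Neurod1 was -0.11 on the arrays whose labels conflict and -0.060 to 0.14 without 1 mouse. Causes of these turns were not tested.

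Replicate numbers did not pair the mice, with correlations of same-numbered deviations of -0.35, 0.031, -0.0071 and -0.0065. With the replicate number as a block 3 probes were called, and the lowest adjusted p over the brightest probe of each marker was 0.709 (limma). Reference signal not well above background on most or all arrays (Dcx, Igfbpl1, Calb2) and near-background probes (Eomes, Draxin) limit what these arrays can resolve.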

Other observations

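Over the 8 mice, genes whose log2 ratios were among the most like Igfbpl1, a comparison made after its values were seen, were Fam222a (Pearson's r = 0.98), Six3 (0.98), N4bp3 (0.97) and Ebf2 (0.96), and the least alike was Elapor1 (-0.98), out of 14872 genes compared. Six3 and Ebf2 are transcription factors of the developing forebrain. Rsph1, a radial spoke protein of motile cilia, ranked 21 with an r of 0.92 and a Spearman's rho of 0.62. Ebf3 ranked 65 with an r of 0.89 and a rho of 0.71. In the ependyma list r with Igfbpl1 ran from 0.30 (Tmem212) to 0.92 (Rsph1). In the Cajal-Retzius list, without Reln, it ran from -0.19 (Ndnf) to 0.96 (Ebf2). These are descriptions over 8 arrays of one slide, and no cause was tested.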
